A study of Mus musculus with 2 samples.

Results

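The 6 genes described here are Hoxc4, Hoxc5, Hoxc6, Hoxc8, Hoxc9 and Hoxc10, the members of the HoxC cluster with appreciable transcript counts in mouse gastruloids. They were taken by gene symbol from the 32285 genes of the deposited count files, and all 6 were found. The files also list Hoxc11, Hoxc12 and Hoxc13, so the cluster has 9 annotated Hox genes there, beside 30 genes of the HoxA, HoxB and HoxD clusters.

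Hox genes encode homeodomain transcription factors that give cells of the embryo a position along the head-to-tail axis. Within a cluster the genes lie in the order of their use: those at the 3' end, such as Hoxc4, are turned on earlier and more anteriorly, and those towards the 5' end, such as Hoxc10, later and more posteriorly. Mammalian genes with the same number in different clusters are paralogs and share much of their function. In the growing tail region, CDX factors and WNT and FGF signals are known to activate the trunk Hox genes, and Polycomb complexes keep them silent elsewhere.

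In gastruloid culture, clumps of embryonic stem cells elongate and form many cell types of the trunk, here including somites. Both pools came from the same E14 stem cell line, which carries 3 fluorescent reporters and an HA-FKBP12F36V degron tag on the Zeb2 protein made from its own locus. Aggregates of 300 cells received 3 µM CHIR99021 at 48 h and 10% Matrigel at 96 h. The dTAG-13 pool also received 100 nM dTAG-13, which directs the tagged protein to degradation, at 72 and 96 h, while the control is labelled untreated in the sample labels and DMSO in the series text. Each group was 1 library of about 32 pooled gastruloids, so the comparison has no replicate and no test was made. The intervals given are 95% intervals for counting error only.

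The comparison addresses what differed when the Zeb2 protein was degraded. Counts were unique molecular identifiers (UMIs) from 3' single-cell libraries, with 6231 untreated and 6688 dTAG-13 cells kept, 140019633 and 151601709 UMIs, and median depths of 20073 and 20207 UMIs per cell. Of the cell barcodes, 14 occurred in both libraries, and without them all 6 members were still at least 1.5-fold lower. The Zeb2 transcript stood at 67.9 and 94.6 CPM (UMIs scaled to a library total of 1000000), which does not check the labels because dTAG-13 acts on the protein. All 7 somite markers had at least 10 UMIs over both libraries, and they summed to 231.8 CPM in the untreated and 153.6 CPM in the dTAG-13 library. The summed level of 8 presomitic mesoderm markers was 388.2 against 207.6 CPM, and that of 8 non-neural ectoderm markers 190.2 against 557.2 CPM. HoxC levels were therefore also taken by lineage.

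All 6 members were lower in the dTAG-13 library, from 1.8-fold for Hoxc5 to 2.64-fold for Hoxc10. Hoxc8, a thoracic-level gene, had the highest level, at 122 CPM (120.2 to 123.8) untreated and 59.8 CPM (58.6 to 61.1) with dTAG-13. Hoxc6 followed with 68.1 CPM (66.7 to 69.4) and 29.8 CPM (28.9 to 30.6), and Hoxc9, which marks the lower thorax, with 52.5 CPM (51.3 to 53.7) and 25.7 CPM (24.9 to 26.6). At the anterior end Hoxc4, a cervical-level gene, stood at 25.2 CPM (24.4 to 26.0) and 11.4 CPM (10.9 to 12). The levels were thus highest at Hoxc8, in the middle of the cluster, with lower values on both sides.

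Hoxc5 and Hoxc10 were low in both libraries. Hoxc5 was at 6.06 CPM (5.66 to 6.49) and 3.37 CPM (3.09 to 3.68). Hoxc10, the lumbar-level gene and the most posterior member, was at 5.64 CPM (5.26 to 6.05) and 2.14 CPM (1.91 to 2.38). Further towards the posterior end, the files held 6 untreated and 2 dTAG-13 UMIs of Hoxc11, 2 and 1 of Hoxc12, and 27 and 37 of Hoxc13. The long non-coding RNA Hotair, transcribed from the opposite strand between Hoxc12 and Hoxc11, had 0 UMIs. A floor of 3 counts stands at 0.0214 CPM untreated and 0.0198 CPM with dTAG-13. Beyond Hoxc10 levels thus reached at most 0.244 CPM, with Hoxc13 in both libraries and Hoxc11 in the untreated library above the 3 counts taken as the floor.

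**Figure D1:**
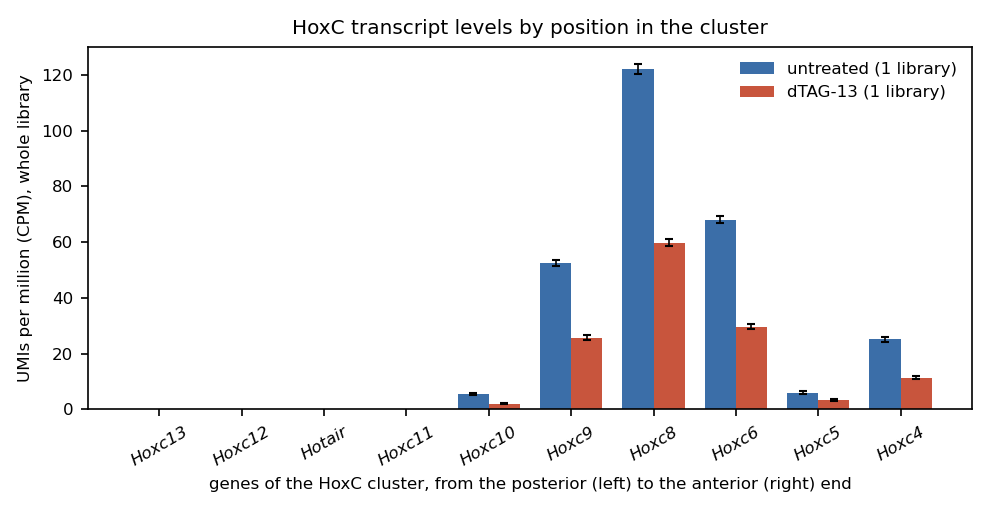
Level of each HoxC gene (CPM) in the whole untreated and dTAG-13 libraries, in the order of the cluster with the posterior end at the left; error bars are 95% Poisson intervals of the members. The level is highest at Hoxc8 (122 and 59.8 CPM) and lower on both sides, with Hoxc5 below its neighbours, and every member is lower with dTAG-13.

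The log2 ratio of dTAG-13 over untreated, computed after adding 1 CPM, was -1.07 for Hoxc4, -0.69 for Hoxc5, -1.17 for Hoxc6, -1.02 for Hoxc8, -1.0 for Hoxc9 and -1.08 for Hoxc10. Together the 6 members reached 279.5 CPM (276.7 to 282.2) in the untreated library. They reached 132.3 CPM (130.5 to 134.1) in the other, 2.11-fold lower. All 6 members were at least 1.5-fold lower, while 0.832% of the 19470 genes with at least 10 UMIs were lower by that much and 2.32% were higher. The median log2 ratio was -1.04 over the members and 0.02 over all genes.

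The composition of the cluster's output was nearly the same in both libraries. Hoxc8 made up 43.7% (43.2 to 44.2) of the HoxC UMIs untreated and 45.2% (44.5 to 45.9) with dTAG-13. The ratio of Hoxc9 to Hoxc6, a measure of posterior against anterior members, was 0.772 (0.748 to 0.796) untreated and 0.865 (0.828 to 0.903) with dTAG-13. The ratio of Hoxc10 to Hoxc9 was 0.107 (0.0997 to 0.116) and 0.0831 (0.0739 to 0.093). Over the whole libraries the first ratio was higher and the second lower with dTAG-13, beyond counting error. There the members thus did not shift uniformly towards either end. A 3' library counts the ends of molecules, so levels of different genes were not divided by gene length.

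The members lie on the plus strand of chromosome 15, within 70.06 kb from 102966796 to 103036852 in GRCm38 (GENCODE release M21). Hoxc10 occupies 102966796 to 102971893, Hoxc9 102976439 to 102985099, Hoxc8 102990607 to 102994111, Hoxc6 102998257 to 103011881 and Hoxc4 103018934 to 103036852. Hoxc5 is annotated from 102967443 to 103017429, a span that holds all of Hoxc6, Hoxc8 and Hoxc9 and overlaps Hoxc10. It shares 166 exonic bases with Hoxc10 and 0 of its last 500 exonic bases with any of the other genes.

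The cluster also holds 2 miRNA genes, Mir196a-2 between Hoxc10 and Hoxc9 and Mir615 between Hoxc6 and Hoxc4, at 102973350 to 102973434 and 103014910 to 103015001. miR-196a is known for restraining Hox transcripts, Hoxc8 among them. The 5' arms are shown because their seeds had matches in the 3' UTRs of members. The 3' arms were searched as well and had none. The seed (bases 2 to 8) is in capitals, and the sequences are from RefSeq on GRCm38.p6.
mmu-miR-196a-5p: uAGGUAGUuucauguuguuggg
mmu-miR-615-5p: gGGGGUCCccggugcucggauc
miRNAs are not counted by these libraries. The complement of the miR-196a-5p seed occurred 2 times in the 966-base 3' UTR of Hoxc8, the member with the highest level, and in no annotated 3' UTR of the other 5 members. Among 11356 genes with a 3' UTR of at least that length, 4.17% held 1 or more matches in their first 966 bases and 0.159% held 2 or more. Both Hoxc8 stretches are printed with the seed match in capitals, at chr15:102992976-102992997 and chr15:102993733-102993754 on the plus strand of GRCm38.
Hoxc8 site a: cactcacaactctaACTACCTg
Hoxc8 site b: taaatctttaacatACTACCTa
The complement of the miR-615-5p seed occurred 1 time, in the 840-base 3' UTR of Hoxc6, at chr15:103011174-103011195 on the plus strand, where 5.15% of 12265 genes held a match in the same length.
Hoxc6 site: taaaagtcagctttGGACCCCc
These matches are a description of the letters only. Over all cells the log2 ratio was -1.02 for Hoxc8, with 2 matches to the miR-196a-5p seed, and -1.0 for Hoxc9, with 0. Any part of miR-196a in these levels was not tested.

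Of the members, Hoxc4 has a promoter entry in the RefSeq table used. That entry is for an internal transcript start, inside the span of the longer annotated transcript. The 250 bases before it (chr15:103034145-103034394, plus strand, GRCm38.p6) are shown because 4 short motifs were searched there on both strands. These were CACCTG, an E-box of the type bound by ZEB proteins, TTTATG, of the type bound by CDX proteins, TGATTNAT, a joint HOX and PBX motif, and AGGTCA, a retinoid receptor half-site; the capitals mark the single match, AGGTCA on the opposite strand.
Hoxc4 promoter: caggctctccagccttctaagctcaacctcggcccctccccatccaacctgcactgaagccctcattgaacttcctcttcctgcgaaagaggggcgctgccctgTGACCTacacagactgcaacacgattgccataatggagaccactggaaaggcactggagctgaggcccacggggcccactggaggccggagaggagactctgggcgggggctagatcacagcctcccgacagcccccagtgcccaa
Among 32851 promoters of that length, 17.2% held CACCTG, 10.8% TTTATG, 2.82% TGATTNAT and 14.0% AGGTCA. The window had a GC content of 62.0%, against a median of 52.4% over all promoters, and 8 CpG dinucleotides against a median of 6.

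Lineages were read from 1 marker gene each, and a cell was called positive at 2 or more UMIs. T marks primitive streak, tail bud and notochord, Sox2 neural and pluripotent cells, Tbx6 presomitic mesoderm and Meox1 somites. Sfn marks epithelium of the non-neural ectoderm, and Zfp42 (Rex1) naive pluripotent cells. The gates overlap, and 21.6% of untreated and 28.4% of dTAG-13 cells were positive for none of them. Counts of members in cells chosen by other limits or combinations are given below without the share of all genes past the same fold. In pools of cells, fewer cells of a type and less RNA per cell cannot be told apart in a whole-library level, and within a gate a change of the cells that pass it remains part of the ratio.

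HoxC levels were highest in T-positive and Sox2-positive cells and lowest in Zfp42-positive cells in both libraries. In the untreated library the summed HoxC level was 398.6 CPM (391.9 to 405.4) in T-positive cells, 352.7 CPM (348.5 to 356.9) in Sox2-positive cells and 258.7 CPM (249.9 to 267.8) in Tbx6-positive cells. It was 192.3 CPM (183.3 to 201.7) in Sfn-positive cells, 75.7 CPM (72.1 to 79.4) in Meox1-positive cells and 34.7 CPM (31.7 to 37.8) in Zfp42-positive cells. With dTAG-13 the same gates held 240.9 CPM (234.7 to 247.2), 157.6 CPM (154.8 to 160.3), 151.4 CPM (141.5 to 161.7), 125.1 CPM (121.5 to 128.8), 39.5 CPM (36.6 to 42.7) and 27.8 CPM (25.7 to 29.9). The order of the gates was thus the same in both libraries, although Sox2-positive and Tbx6-positive cells did not differ beyond counting error with dTAG-13.

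Cells positive for both T and Sox2, the pair that marks neuromesodermal progenitors, stood at 444.8 CPM untreated and 262.1 CPM with dTAG-13. Those of them that were positive for no other gate gene had 495.9 and 331.7 CPM. Cells positive for both T and Tbx6 stood at 349.8 and 229.1 CPM. The 6 members kept 1 order of level, Hoxc8, Hoxc6, Hoxc9, Hoxc4, Hoxc5 and Hoxc10 from high to low, in all 14 combinations of library and gate, the whole libraries included.

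In T-positive cells all 6 members were at least 1.5-fold lower with dTAG-13, against 1.05% of genes. Hoxc8 stood at 180.1 CPM (175.6 to 184.7) untreated and 111.5 CPM (107.3 to 115.9) with dTAG-13, a log2 ratio of -0.69. Hoxc4 went from 32.4 to 17.1 CPM (log2 ratio -0.88), Hoxc6 from 95.9 to 54.8 CPM (-0.80) and Hoxc9 from 72.8 to 46.9 CPM (-0.62). The ratio of Hoxc9 to Hoxc4 was 2.25 (2.09 to 2.41) untreated and 2.74 (2.44 to 3.08) with dTAG-13, so the anterior member was the more reduced of the pair. The ratio of Hoxc10 to Hoxc9 was 0.1162 (0.1025 to 0.1313) and 0.1085 (0.0892 to 0.131) in T-positive cells, with overlapping intervals. In cells positive for none of the 6 gates it was 0.144 (0.1184 to 0.1739) untreated and 0.0741 (0.0539 to 0.0998) with dTAG-13. T-positive cells were 22.3% of the untreated and 14.3% of the dTAG-13 cells.

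The T gate did not hold the same cells in both libraries. The summed level of 8 non-neural ectoderm markers in T-positive cells went from 208.5 CPM in the untreated to 596.8 CPM in the dTAG-13 library, with 7 of 8 at least 1.5-fold higher. That of 8 pluripotency markers was 123.1 and 288.1 CPM, with 7 of 8 higher, and that of 5 notochord markers 22.7 and 54.2 CPM, with 4 of 5 higher. Endoderm markers summed to 48.1 and 132.9 CPM, with 4 of 6 higher, and genes induced by dissociation to 23.7 and 49.2 CPM, with 3 of 6 higher and 1 lower. Presomitic mesoderm markers summed to 871.7 and 660.9 CPM, with 5 of 8 lower, and spinal cord markers to 98.4 and 44.2 CPM, with 2 of 7 lower. Neuromesodermal progenitor markers summed to 1101 and 990.1 CPM, with 3 of 6 counted genes lower and 0 higher. Over all genes of this gate, 4.93% were at least 1.5-fold higher and 1.05% lower. The part of these lists in the HoxC ratio was not tested beyond leaving out gate-positive cells. When cells positive for Sfn or Zfp42 were left out, the HoxC sum was 412.0 and 260.6 CPM, and 3 members, Hoxc4, Hoxc6 and Hoxc8, remained at least 1.5-fold lower, while Hoxc5, Hoxc9 and Hoxc10 had log2 ratios of -0.53, -0.54 and -0.54. With 5 CPM added in place of 1, 3 members passed as well.

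With the gates as defined, Sox2-positive cells showed the largest HoxC ratio of the 6. The order of the gates depended on how cells were chosen: without cells positive for Sfn or Zfp42 the log2 ratio was -0.93 for Sox2 and -1.29 for Meox1, and with a limit of 1 UMI it was -1.12 for Sox2 and -1.23 for Zfp42. All 6 members were at least 1.5-fold lower, against 1.08% of genes. Hoxc6 went from 86.5 CPM (84.4 to 88.6) to 34.9 CPM (33.6 to 36.2), a log2 ratio of -1.29, and Hoxc8 from 153.9 CPM (151.1 to 156.7) to 70.8 CPM (69.0 to 72.7), a log2 ratio of -1.11. Hoxc4 stood at 32.0 and 13.5 CPM (-1.19), Hoxc9 at 66.7 and 31.7 CPM (-1.05), Hoxc10 at 6.66 and 2.62 CPM (-1.08), and Hoxc5 at 6.89 and 4.11 CPM (-0.63).

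This gate combines pluripotent, ectodermal and neural cells, and its makeup differed too. Sfn was also positive in 7.69% of untreated and 23.9% of dTAG-13 Sox2-positive cells. The summed level of 7 spinal cord markers in Sox2-positive cells was 121.3 and 50.2 CPM, with 4 of 7 at least 1.5-fold lower. Without the cells positive for Sfn or Zfp42, the HoxC sum was 424.8 and 221.8 CPM, a log2 ratio of -0.93 in place of -1.16.

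In presomitic mesoderm-type cells, read from Tbx6, the ratios of the members lay close together after adding 1 CPM. Their log2 ratios lay between -0.78 and -0.70, all 6 at least 1.5-fold lower, against 3.1% of genes. Hoxc8 stood at 114.6 CPM (108.7 to 120.7) untreated and 67.8 CPM (61.2 to 74.8) with dTAG-13, Hoxc6 at 63.1 and 36.3 CPM, and Hoxc9 at 45.3 and 26.8 CPM. Only 507 untreated and 179 dTAG-13 cells were Tbx6-positive, and Hoxc10 rested there on 37 and 8 UMIs. Without the added CPM, Hoxc10 was 2.17-fold lower, against 1.69-fold for Hoxc8 and Hoxc9. The widest intervals were those of Hoxc10 (-2.431 to 0.008) and Hoxc5 (-1.505 to -0.186), so an equal reduction of the members is not shown.

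The Tbx6-positive cells of the dTAG-13 library were deeper, with a median of 24487 UMIs against 21463. The 8 pluripotency markers summed to 45.3 and 215.4 CPM there, all 8 higher, and the 8 non-neural ectoderm markers to 76.3 and 254.1 CPM, 7 of 8 higher. Over all genes of this gate, 5.46% were at least 1.5-fold higher. The part of these lists in the HoxC ratio was not tested.

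Of the Tbx6-positive cells, 14.6% untreated and 30.7% with dTAG-13 were also positive for Meox1, the somite marker at which HoxC levels were low. In the 207 and 59 cells positive for Tbx6 alone among the gate genes, the HoxC sum was 191.3 and 140.6 CPM, a log2 ratio of -0.44. There 2 members stayed at least 1.5-fold lower, and Hoxc10, with few UMIs, had a log2 ratio of 0.92.

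Meox1-positive cells had low HoxC levels in both libraries and lower ones with dTAG-13. All 6 members were at least 1.5-fold lower, against 0.939% of genes, with Hoxc4 at a log2 ratio of -0.59, just past the limit of -0.585. After adding 1 CPM, Hoxc9 showed the largest ratio, from 15.6 CPM (14.0 to 17.3) to 6.65 CPM (5.47 to 8.01), a log2 ratio of -1.11. Without the added CPM the folds of the low members Hoxc10 (4.48, on 24 and 4 UMIs) and Hoxc5 (2.49) exceeded that of Hoxc9 (2.34). Hoxc8 went from 31.1 to 16.0 CPM (-0.92) and Hoxc6 from 17.2 to 10.6 CPM (-0.65). The ratio of Hoxc9 to Hoxc6 in this gate was 0.906 (0.782 to 1.05) untreated and 0.627 (0.490 to 0.7996) with dTAG-13. It was lower with dTAG-13, unlike in the T and Sox2 gates, but the intervals overlapped. In cells positive for Meox1 alone, Hoxc9 and Hoxc6 held 39 and 64 UMIs untreated and 20 and 34 with dTAG-13.

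Most of the HoxC signal of the Meox1 gate came from cells positive for a further gate gene. In the 695 untreated and 445 dTAG-13 cells positive for Meox1 alone, the HoxC sum was 17.5 and 10.3 CPM, with Hoxc8 at 5.86 and 1.83 CPM, and 2 members, Hoxc5 and Hoxc8, were at least 1.5-fold lower. In the 90 and 67 cells positive for Sox2 and Meox1 it was 249.3 and 66.9 CPM, a log2 ratio of -1.88. With 5 CPM added in place of 1, the count in the whole gate was also 2. Non-neural ectoderm markers summed to 55.2 and 164.6 CPM in Meox1-positive cells, 7 of 8 higher, against 2.53% of all genes. Without the cells positive for Sfn or Zfp42 the HoxC sum of the gate was 71.7 and 28.7 CPM.

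Sfn-positive cells made up 5.12% of the untreated and 20.01% of the dTAG-13 cells, and their HoxC levels were lower with dTAG-13 by a smaller ratio than in the T, Sox2, Tbx6 and Meox1 gates. Here 3 of 6 members were at least 1.5-fold lower, against 3.58% of genes. These were Hoxc6, from 46.2 CPM (41.8 to 50.9) to 28.7 CPM (27.0 to 30.6), Hoxc8, from 91.4 CPM (85.2 to 98.0) to 59.7 CPM (57.2 to 62.3), and Hoxc10, which rested on 18 and 27 UMIs. Their log2 ratios were -0.67, -0.61 and -0.80. Hoxc9 was just outside the limit, at 31.8 and 20.9 CPM, while Hoxc4 had a log2 ratio of -0.47 and Hoxc5 of -0.31.

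The untreated Sfn gate held a larger share of Zfp42-positive cells, though fewer by number, 112 against 224. Zfp42 was positive in 35.1% of untreated and 16.7% of dTAG-13 Sfn-positive cells, and the summed level of 8 pluripotency markers was 2504 and 1013 CPM, all 8 lower. Without the Zfp42-positive cells the HoxC sum was 301.0 and 149.9 CPM, a log2 ratio of -1.0. There 6 of 6 members were at least 1.5-fold lower, a count not set against the share of all genes in these cells. The ratio within Sfn-positive cells thus moved from -0.62 to -1.0 with the removal of the Zfp42-positive cells.

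In Zfp42-positive cells 5 of the 6 members had the 10 UMIs needed for a call, and 0 of these were at least 1.5-fold lower, against 0.68% of genes, or higher. Hoxc10 had 5 untreated UMIs and 1 dTAG-13 UMI. Hoxc8 stood at 16.4 CPM (14.4 to 18.6) untreated and 12.7 CPM (11.3 to 14.2) with dTAG-13, a log2 ratio of -0.34, and Hoxc9 at 5.31 CPM (4.20 to 6.63) and 5.39 CPM (4.50 to 6.40), a log2 ratio of 0.02. The other 4 members lay between -0.44 and -0.11. The count depended on the gate: all 6 members passed when 1 UMI of Zfp42 was enough, with a HoxC sum of 124.7 and 52.8 CPM, and 3 passed when Sfn-positive cells were left out, with 34.7 and 14.3 CPM. At 4 or more Zfp42 UMIs the order was turned, with a sum of 9.34 CPM in untreated and 18.4 CPM in dTAG-13 cells.

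**Figure D2:**
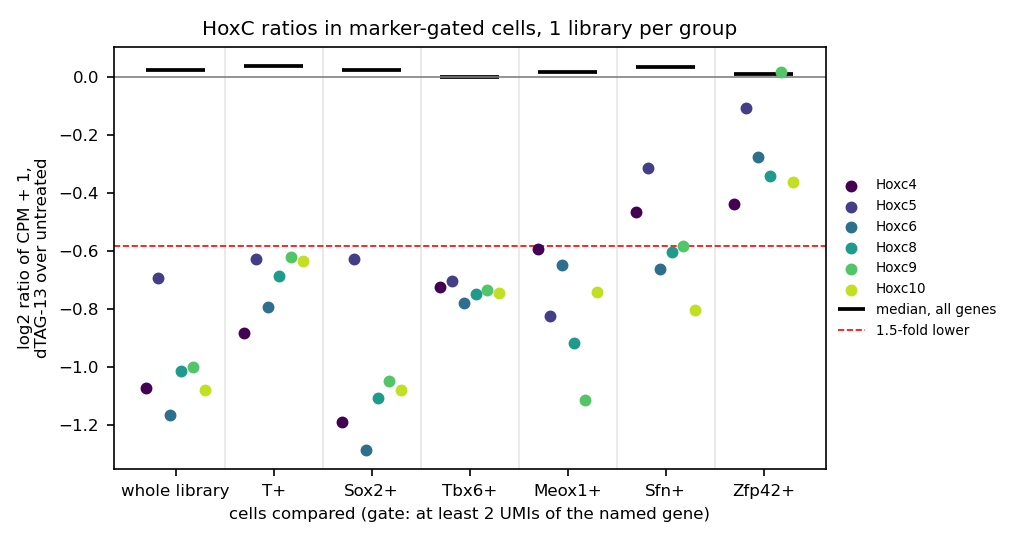
Log2 ratio of dTAG-13 over untreated (CPM plus 1) for each HoxC member in the whole library and in cells with at least 2 UMIs of each marker gene; the black bar is the median over all genes and the dashed line the 1.5-fold limit. All members lie below the limit in the whole library and in T-, Sox2-, Tbx6- and Meox1-positive cells, 3 of 6 in Sfn-positive cells and 0 of 6 in Zfp42-positive cells.

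HoxC levels also differed with the number of marker UMIs. In untreated cells the HoxC sum rose from 216.7 CPM at 0 T UMIs to 415.3 CPM (403.7 to 427.2) at 4 to 7 T UMIs, and was 351.7 CPM (337.6 to 366.3) at 8 or more. With dTAG-13 it rose from 101.0 CPM at 0 to 265.0 CPM (255.2 to 275.0) at 2 to 3 UMIs and was 183.0 CPM (171.6 to 195.0) at 8 or more. The highest HoxC level was thus found at intermediate T counts in both libraries. Sox2 gave a like shape, with 380.8 and 184.8 CPM at 4 to 7 UMIs, against 306.3 and 101.1 CPM at 8 or more.

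Along Meox1 the HoxC sum dropped from 324.0 CPM at 0 to 77.6 CPM at 2 to 3 UMIs in untreated cells and then stayed level, with 74.1 CPM at 8 or more. Along Zfp42 it fell from 313.9 CPM at 0 to 8.23 CPM (6.54 to 10.2) at 8 or more UMIs untreated, and from 161.5 to 16.0 CPM (14.1 to 18.1) with dTAG-13. The curves of both libraries crossed only along Zfp42, between 2 to 3 and 4 to 7 UMIs. Along Sfn the dTAG-13 values were nearly flat, from 136.4 CPM at 0 to 111.8 CPM at 8 or more, while the untreated values went from 291.5 CPM at 0 to between 178.3 and 211.2 CPM in cells with any.

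**Figure D3:**
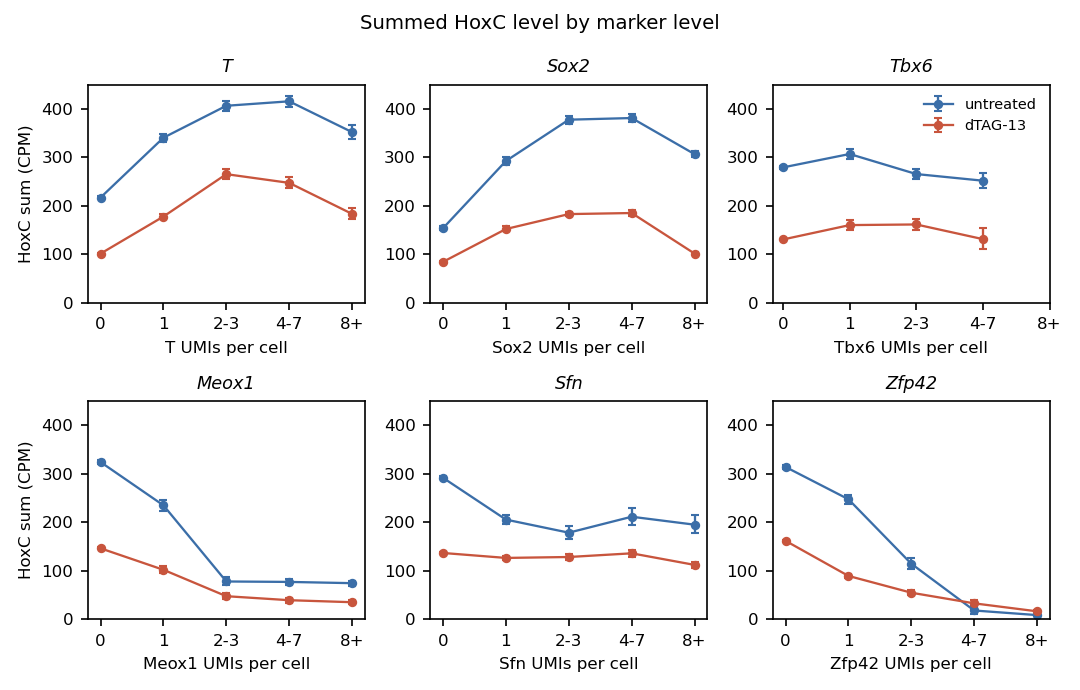
Summed HoxC level (CPM) of cells binned by their UMIs of each marker gene, for the untreated and dTAG-13 libraries; error bars are 95% Poisson intervals and bins under 20 cells are left out. HoxC is highest at intermediate T and Sox2 counts, low at 2 or more Meox1 UMIs and lowest at 8 or more Zfp42 UMIs, where the dTAG-13 value (16.0 CPM) lies above the untreated value (8.23 CPM).

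To set cells of like markers side by side, cells were sorted by which of the 6 gate genes were positive. There were 15 combinations with at least 20 cells in both libraries, which covered 96.9% of the untreated and 96.8% of the dTAG-13 cells. The HoxC sum was at least 1.5-fold lower with dTAG-13 in 10 of these 15 and at least 1.5-fold higher in 1. Over these cells the log2 ratio of the HoxC sum was -1.08. Makeup was taken as the share of the UMIs that each combination held. With this makeup set equal the log2 ratio was -0.90, and with the levels set equal and only the makeup differing it was -0.18. For single members the ratio at equal makeup was -0.92 for Hoxc4, -0.54 for Hoxc5, -1.0 for Hoxc6, -0.86 for Hoxc8, -0.78 for Hoxc9 and -0.82 for Hoxc10. For these on-or-off patterns of the 6 genes, the ratio at equal makeup was thus larger in size than that at equal levels. These patterns are coarse, and cells within a pattern can still differ in type, as the T-positive cells did. The part of such differences in the ratio at equal makeup was not tested.

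Per cell, more dTAG-13 than untreated cells had no HoxC UMI, and in some gates cells with any also held fewer. For this, each cell was thinned to 5000 UMIs, which left out 87 untreated and 81 dTAG-13 cells. No HoxC UMI was found in 50.4% (49.2 to 51.7) of untreated and 72.2% (71.1 to 73.3) of dTAG-13 cells. Among cells with any, the mean was 2.67 UMIs untreated and 2.37 with dTAG-13. In T-positive cells the share without any was 30.9% and 55.8%, and the mean among cells with any was 2.68 and 2.61 UMIs. In Sox2-positive cells the share without any was 37.8% and 67.0%, and the mean 2.75 and 2.47 UMIs. In Tbx6-positive cells it was 44.2% and 64.3%, with means of 2.31 and 2.17 UMIs. In Sfn-positive cells the share without any was 61.1% and 66.5%, and the mean among cells with any 2.35 and 1.81 UMIs. Meox1-positive cells gave 88.1% and 92.2%, with means of 1.73 and 1.41 UMIs, and Zfp42-positive cells 92.5% and 94.0%, with means of 2.05 and 1.48 UMIs. The shares without any thus differed most in T- and Sox2-positive cells. The means have no interval, and they rested on 108 untreated and 49 dTAG-13 cells in the Meox1 gate. In the Zfp42 gate they rested on 39 and 46 cells, so the gates are not ranked by their means.

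As a background for these shares, any member was found in 2.07% (0.837 to 4.22) of the 338 untreated and 1.90% (0.872 to 3.57) of the 474 dTAG-13 cells with 8 or more Zfp42 UMIs, after the same thinning. Pluripotent cells are not known to express trunk Hox genes, and these cells had median depths of 27741 and 28131 UMIs before thinning. The share with a Hoxc8 UMI was 0.888% and 1.27% there, against 34.7% (33.5 to 35.9) and 18.1% (17.2 to 19.1) of all cells. For Hoxc10 the background was 0 cells, which allows a share of up to 0.888% and 0.633%, against 1.95% (1.62 to 2.33) and 0.848% (0.641 to 1.1) of all cells. The dTAG-13 share of Hoxc10 was close to this limit, which is set by the number of background cells. Without thinning, the same cells held 2 untreated and 0 dTAG-13 UMIs of Hoxc10, or 0.203 and 0 CPM. The whole libraries held 5.64 and 2.14 CPM of Hoxc10. In these background cells Hoxc8 reached 2.845 (untreated) and 8.0 CPM (dTAG-13), and the HoxC sum 8.23 and 16.0 CPM. Among all cells with at least 4 Zfp42 UMIs, 1 untreated and 12 dTAG-13 cells had 10 or more HoxC UMIs. They held 16.4% and 74.8% of the HoxC UMIs of that wider class. The dTAG-13 background can thus include cells rich in HoxC, and it is not shown to be free of them.

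Hoxc6 was detected in 23.9% (22.8 to 24.96) of untreated and 11.5% (10.7 to 12.3) of dTAG-13 cells, Hoxc9 in 17.2% (16.3 to 18.2) and 9.16% (8.47 to 9.88), and Hoxc4 in 10.3% (9.57 to 11.1) and 5.16% (4.64 to 5.72). In T-positive cells Hoxc8 was detected in 49.3% (46.7 to 52.0) and 30.5% (27.6 to 33.5). In Sox2-positive cells it was detected in 44.1% (42.3 to 45.9) and 21.2% (19.8 to 22.7), and in Sfn-positive cells in 27.6% (22.8 to 32.8) and 20.6% (18.4 to 22.8). The intervals of the Sfn gate touched at about the same value, so the difference in share there was not clear of counting error.

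Cells with several members were fewer with dTAG-13 over all cells and in T- and Sox2-positive cells. At 5000 UMIs, 3 or more of the 6 members were found in 10.6% (9.85 to 11.4) of untreated and 4.30% (3.82 to 4.82) of dTAG-13 cells, and without thinning in 41.7% and 20.8%. By gate the shares were 15.2% and 8.34% in T-positive, 14.1% and 5.13% in Sox2-positive, 8.68% and 3.35% in Tbx6-positive, 4.70% and 2.10% in Sfn-positive, 0.883% and 0.481% in Meox1-positive and 0.956% and 0.393% in Zfp42-positive cells. The intervals of both libraries overlapped in Tbx6-positive (6.38 to 11.5 and 1.24 to 7.15), Sfn-positive (2.66 to 7.64 and 1.4 to 3.02), Meox1-positive (0.382 to 1.73 and 0.0993 to 1.4) and Zfp42-positive cells (0.311 to 2.22 and 0.0812 to 1.15). In thinned cells all 6 members were found together in 0 untreated cells and 1 dTAG-13 cell, and without thinning in 85 and 29 cells.

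**Figure D4:**
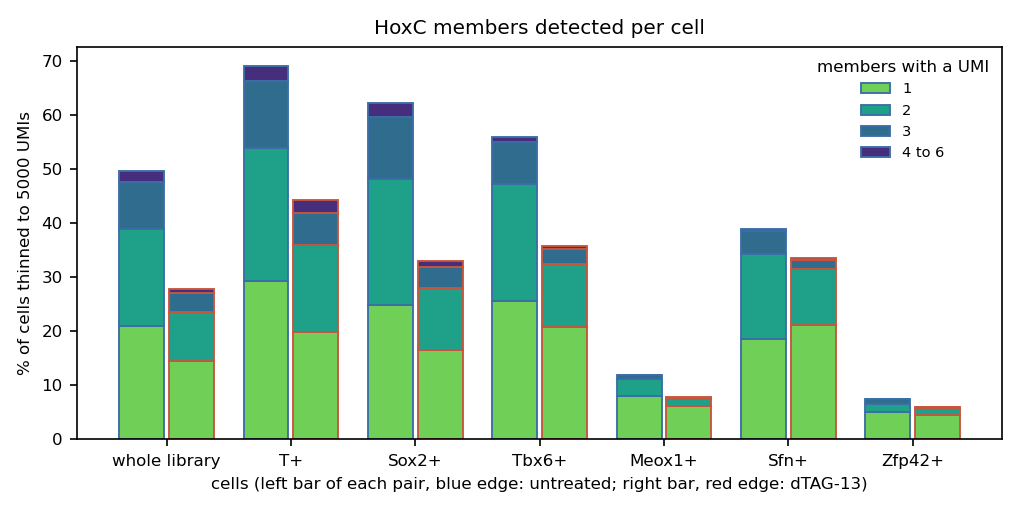
Share of cells, thinned to 5000 UMIs, in which 1, 2, 3 or 4 to 6 HoxC members had a UMI, in the whole libraries and in marker-positive cells (left bar untreated, right bar dTAG-13). The share with any member is 49.6% untreated and 27.8% with dTAG-13 over all cells, and at most 11.9% in either library in Meox1- and Zfp42-positive cells.

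Members were detected in the same cells more often than the product of their single shares gives. The ratio to this product was larger with dTAG-13 over all cells and in T- and Sox2-positive cells. Hoxc8 and Hoxc9 were found together in 670 untreated cells against a product of 366.6, a ratio of 1.83, and in 358 dTAG-13 cells against 109.5, a ratio of 3.27. Hoxc6 and Hoxc9 gave 1.99 and 3.47, and Hoxc6 and Hoxc8 1.79 and 3.13. Within T-positive cells Hoxc8 and Hoxc9 gave 1.35 and 2.12, and within Sox2-positive cells 1.44 and 2.78. In Sfn-positive cells the ratios were alike, at 2.39 and 2.34. A ratio above 1 arises wherever cells with and without the cluster's transcripts are mixed, and the counts of cells with both are small for Hoxc5 and Hoxc10. The highest value that the ratio can take also rises as the single shares fall, and these shares were lower with dTAG-13. A larger ratio therefore does not show closer co-detection.

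Among cells that had Hoxc9, the share that also had Hoxc8 was similar in both libraries. Of the cells with Hoxc9, 63.4% (60.4 to 66.3) untreated and 59.2% (55.1 to 63.1) with dTAG-13 also had Hoxc8. Of the cells without Hoxc9, 28.7% (27.5 to 29.99) and 14.0% (13.1 to 14.9) had it. The most posterior member detected in a cell was Hoxc8 in 46.8% and 44.8%, Hoxc9 in 32.8% and 31.4%, and Hoxc10 in 3.94% and 3.05% of the cells with any. These shares were much alike in both libraries, while Hoxc4 was the most posterior in 3.45% and 6.05% and Hoxc5 in 0.952% and 1.85%. With few HoxC UMIs per cell, the member detected depends on which members are abundant. The shares are therefore not a separate reading of axial position.

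The 4 Hox clusters did not differ between the libraries to the same extent. Over all cells the log2 ratio was -0.59 (-0.61 to -0.57) for the 11 HoxA genes, -0.63 (-0.64 to -0.61) for the 10 HoxB genes, -1.07 (-1.10 to -1.05) for the 9 HoxC genes and -1.21 (-1.28 to -1.18) for the 9 HoxD genes. HoxC stood closest to HoxD in the whole library and in T-, Sox2- and Sfn-positive cells, but farther from it in the mesodermal gates. In Tbx6-positive cells HoxC was at -0.77 (-0.88 to -0.67), against -0.23 for HoxA, -0.35 for HoxB and -0.35 for HoxD. In Meox1-positive cells HoxC was at -0.92 (-1.07 to -0.80), against -0.17, -0.30 and -0.37. In Sfn-positive cells HoxC was at -0.62 (-0.70 to -0.54) and HoxB at 0.06 (0.02 to 0.10), from 648.9 to 675.8 CPM. The intervals of HoxC lay apart from those of HoxA and HoxB in these 3 gates, but with 1 library per group the difference has no replicate check. The gates overlap, and in cells positive for 1 gate gene alone the HoxC log2 ratio was -0.44 for Tbx6 and -0.72 for Meox1. The other clusters were not summed in those cells, so the contrast between clusters was not tested there.

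**Figure D5:**
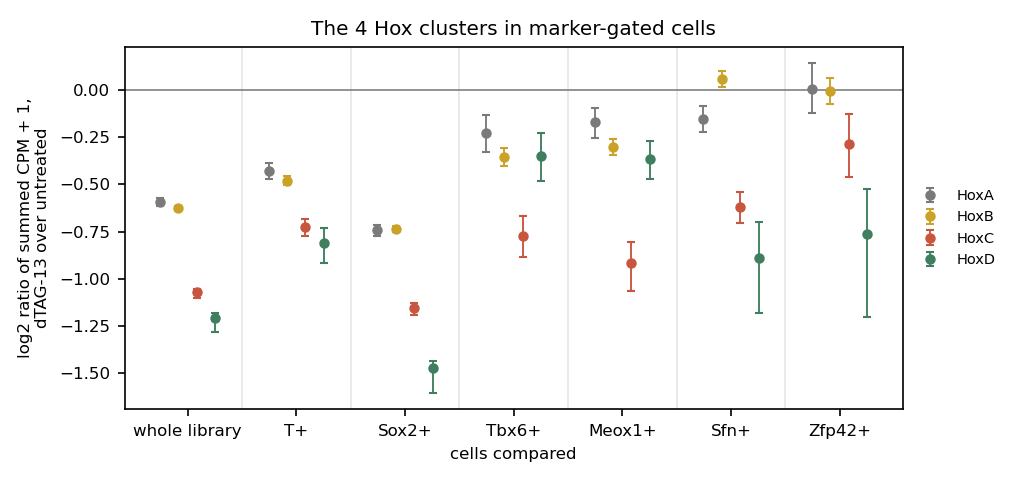
Log2 ratio of dTAG-13 over untreated (summed CPM plus 1) of the 4 Hox clusters in the whole library and in marker-positive cells; error bars are 95% exact conditional intervals for counting error. HoxC lies below HoxA and HoxB in every gate, and below HoxD as well in Tbx6- and Meox1-positive cells.

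Of the 14 paralogs of the members in the other clusters, 9 were at least 1.5-fold lower over all cells and 0 were higher, with a median log2 ratio of -0.69, against -1.04 for the members. Among paralogs with at least 5 CPM in 1 library, the lowest ratios were those of Hoxd4, from 39.8 to 15.2 CPM (-1.34), Hoxa9, from 48.8 to 19.6 CPM (-1.27), Hoxb6, from 16.4 to 7.84 CPM (-0.97), and Hoxd9, from 15.8 to 7.85 CPM (-0.92). At the same level, those nearest to 0 were Hoxa5 (-0.23), Hoxb5 (-0.43), Hoxb8, from 200.8 to 148.2 CPM (-0.44), and Hoxb9, from 371.8 to 244.7 CPM (-0.60). Hoxc8 therefore supplied 37.2% (36.8 to 37.7) of the UMIs of its paralog group untreated and 28.5% (28.0 to 29.0) with dTAG-13. Hoxc6 supplied 79.5% and 78.0% of its group, Hoxc9 10.7% and 8.64%, and Hoxc10 69.9% and 73.8%.

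Genes that act with or upstream of Hox genes were listed as well. Of 17 upstream axial regulators, 3 were at least 1.5-fold lower and 1 was higher, with a median log2 ratio of -0.24. The caudal-type factors Cdx4, from 49.5 to 20.2 CPM (-1.25), and Cdx2, from 144.9 to 94.7 CPM (-0.61), were lower, as was the tail bud signal Wnt3a (7.2 to 2.51 CPM), named after its values were seen. Cdx1, the other caudal-type factor, stood at 20.4 and 26.2 CPM (0.35), so the family did not differ in 1 direction. The related signal Wnt8a was higher, from 19.98 to 30.6 CPM (0.59), and Fgf8 stood at 171.7 and 132.8 CPM (-0.37). Of 9 TALE cofactors, which bind DNA together with HOX proteins, 1 was lower and 0 were higher, with a median of -0.01. The lower one was Meis1 (-0.61), named here after its values were seen, while among those with at least 20 CPM Pbx3 went from 30.1 to 40.2 CPM (0.41), and Meis2 (0.03) and Pbx2 (-0.01) lay near 0. Of 21 Polycomb and trithorax genes, which keep Hox genes silent or active, 0 were lower and 2 were higher, with a median of 0.05. These 2, Phf19 and Ezh1, stood under 20 CPM in both libraries and were named after their values were seen. Of those with at least 20 CPM, Jarid2 (0.27), Kdm6b (0.23), Kmt2b (0.20) and Kdm6a (0.19) differed most.

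The genes whose level was most like the HoxC sum were looked for over 12 points, the 6 gates in both libraries, among 6646 genes. By Pearson's r across these points, which share cells and libraries, the likest were Cdx2 (0.966), Cep290 (0.966), Sp8 (0.960), Psip1 (0.954), Zbtb16 (0.952), Pitrm1 (0.947), Cdx4 (0.946) and Prkag2 (0.943). Cdx2 ranged from 31.2 to 231.3 CPM over the points and Cdx4 from 5.43 to 102.0 CPM, whereas Cep290 ranged only from 42.5 to 57.3 CPM. The members correlated with each other at r of 0.906 to 0.995 over the same points.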

How the data were processed

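Single-cell 3' RNA libraries of 1 untreated and 1 dTAG-13 pool were analysed. The deposited files hold UMI counts per gene and cell barcode, made by the authors with Cell Ranger 6.1.2 on mm10, per the submitters' processing notes and the file headers; the annotation and strand setting are not given in the sources used here, nor is the hour of harvest. No sample column was left unused (0). Gene positions came from GRCm38 (GENCODE M21) and sequences from RefSeq tables of GRCm38.p6.

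Barcodes with fewer than 1000 genes or over 10% mitochondrial UMIs were removed, 630 untreated and 693 dTAG-13. Scrublet in scanpy 1.11.5 marked too few doublets at its own threshold, so the highest scores were removed at 0.8% per 1000 barcodes, 415 and 492. A gate is at least 2 UMIs of 1 marker gene. Counts were summed per library and gate and scaled to CPM; log2 ratios used 1 added CPM, and a gene was called at a 1.5-fold difference among genes with at least 10 UMIs, the gate gene left out. Intervals are exact Poisson for levels, Clopper-Pearson for shares and exact conditional for ratios; the last contain no added CPM and can lie farther from 0 than the ratio. Detection used cells thinned to 5000 UMIs. With 1 library per group, no test was made. The calling step was tested on simulated data. Python 3.11.15, numpy 2.4.6, pandas 2.3.3, scipy 1.17.1 and matplotlib 3.10.9 were used.

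The members and gene lists were chosen with earlier results of these data known. Named genes are the 6 members, the rest of the cluster, up to 4 genes per list with the largest ratio at 20 CPM or more, the 4 paralogs with the largest and the 4 with the smallest ratio at 5 CPM or more, and the 8 genes most like the HoxC sum. A gene of the cofactor list that this rule names is not reported here. Alternatives were the cell filters, the added CPM, the size factors, thinning, the gate limit, exclusive gates, and, chosen after seeing the data, leaving out barcodes found in both libraries or cells positive for Sfn or Zfp42.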

Additional observations from a re-analysis of the deposited data

Results flagged for a closer look

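The HoxC sum was lower with dTAG-13 in the whole library but higher among cells with at least 4 Zfp42 UMIs, where it stood at 9.34 and 18.4 CPM, a log2 ratio of 0.909. The opposite direction is what singled it out, and the difference was not tested. Of these cells, 55 of 393 untreated and 48 of 552 dTAG-13 cells had any HoxC UMI. Cells with at least 10 HoxC UMIs numbered 1 and 12, and they held 16.4% and 74.8% of the HoxC UMIs of this class.

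Cells positive for Sox2, Sfn and Zfp42 together moved against the other 14 combinations of gate genes, with 13.3 and 21.1 CPM of HoxC and a log2 ratio of 0.63 over 94 and 169 cells. This difference was not tested either.

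Barcodes removed for few genes or many mitochondrial UMIs also held HoxC transcripts, in data that no comparison used. Untreated barcodes of this kind held 180.4 CPM (161.5 to 200.9) and dTAG-13 barcodes 112.6 CPM (99.5 to 127.0). Barcodes removed by doublet score held 263.3 and 107.0 CPM.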

How the results depend on the processing

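No paired analysis was possible because each group is 1 library. Of 67 counts and shares over 16 settings, 52 kept their outcome, and 356 of 434 values of single members and sums kept their call. With 5 CPM added, the number of members at least 1.5-fold lower became 3 in T-positive, 2 in Meox1-positive and 1 in Sfn-positive cells. In cells positive for no other gate gene it became 2 for Tbx6, 2 for Meox1, 6 for Sfn and 6 for Zfp42. Leaving out cells positive for Sfn or Zfp42 gave 3 in T-positive cells, leaving out Zfp42-positive cells gave 6 in Sfn-positive cells, and leaving out Sfn-positive cells gave 3 in Zfp42-positive cells. In Zfp42-positive cells thinning gave 2, and a gate of 1 UMI gave 6. The share of cells with at least 3 members differed by -6.31 points, by -14.9 when thinned to 10000 UMIs, -20.9 without thinning and -0.23 when a member needed 2 UMIs. Of the values past 1.5-fold, the ratio changed sign for Hoxc10 in cells positive for Tbx6 alone (0.918) and for Hoxc4 in thinned Meox1-positive cells (0.055). Values short of it changed sign too, among them Hoxc4 (0.27) and Hoxc5 (0.294) in thinned Sfn-positive cells and, at 4 Zfp42 UMIs, Hoxc8 (1.21) and the HoxC sum (0.909). The counts under these settings are given without the share of all genes past the same fold. The causes were not tested.

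With 1 library per group, differences between pools of gastruloids, library preparation and treatment cannot be told apart. Gates rest on 1 gene each at median depths of 20182 to 27324 UMIs per cell, and a cell without a UMI of the gate gene is not shown to lack it.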
